A study of Homo sapiens with 16 samples.

Results

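The 10 genes examined here encode the core of mTOR signalling and of the control of translation elongation. They include EEF2 and its kinase EEF2K, MTOR with its partners RPTOR and RICTOR, the upstream brake TSC1 and TSC2, and the kinase RPS6KB1. EIF4E, which binds the mRNA cap, and its inhibitor EIF4EBP1 complete the list. All 10 genes were chosen by name, with earlier results of these data known. They were all found among the 25370 gene symbols of the count table and passed the filter on low counts, as did 16004 genes in all. The libraries came from HMC3, an established human microglial line, sampled 24 h after addition of vehicle, of estradiol (E2, 0.1 nM), of ketamine (400 nM), of the ketamine metabolite (2S,6S)-HNK (400 nM) or of its mirror image (2R,6R)-HNK (400 nM), or of E2 (0.1 nM) plus one of those drugs (400 nM). Each of the 8 conditions had 2 libraries. Cells of every condition, vehicle included, had been kept in charcoal-stripped serum and then without serum, and all carry the limits of a single cultured line. The sources do not state if both libraries of a group were separate cultures, so the p-values measure only the spread between these libraries, which may be technical.

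The kinase mTOR works in 2 complexes. In mTORC1, built around raptor (RPTOR), it phosphorylates S6 kinase (RPS6KB1) and 4E-BP1 (EIF4EBP1), which releases the cap-binding protein eIF4E and raises initiation, while mTORC2 is built around rictor (RICTOR), and the TSC1-TSC2 complex restrains mTORC1. Elongation is slowed when eEF2 kinase phosphorylates eEF2, a step that S6 kinase opposes. Inhibition of eEF2 kinase and activation of mTOR have both been discussed in connection with the antidepressant action of ketamine in neurons. RNA-seq measures transcripts and carries no information on phosphorylation.

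Totals ran from 55300614 to 81646165 counts per library, and the members had between 933 counts (the lowest library of RICTOR) and 427953 (the highest of EEF2). The standard error of a change against vehicle was 0.018 in log2 for EEF2 and 0.069 to 0.074 for RICTOR, the member with the fewest counts. Of 10 markers of microglia and myeloid cells, 8 (AIF1, ITGAM, TMEM119, P2RY12, CX3CR1, PTPRC, TYROBP and SPI1) had at most 7 counts in any library, CSF1R reached 0.405 to 1.04 counts scaled to the library total (CPM), and CD68 reached 17.4 to 23.4 CPM, so the defining markers of microglia were at or near 0 under the label of a microglial line. Of 6 markers of fibroblasts and pericytes, COL1A1, a collagen, stood at 3589 to 5344 CPM, THY1 at 301 to 605, PDGFRB at 196 to 293 and COL1A2 at 145 to 245, whereas ACTA2 was at 1.49 to 2.75 CPM and COL3A1 had at most 6 counts in any library. The summed level of 3 proliferation markers (MKI67, TOP2A and CCNB1) was 1438 to 1481 CPM in vehicle and 872 to 1083 CPM in the treated libraries, the summed fibroblast and pericyte list was 4750.4 to 4758 CPM in vehicle and 4261 to 6468 CPM in the treated ones, and the part of either in the results below was not tested. In bulk RNA, fewer cells of a type and less RNA per cell cannot be told apart.

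Promoter sequences are shown for 4 members whose windows hold the letters searched for below: EEF2 and EEF2K, the substrate and kinase of the elongation step, and RPS6KB1 and EIF4E, the members with a match to the core site of STAT factors, a family the study followed. Each run holds the 250 bases before the RefSeq start and the first 20 bases of the transcript, in the direction of the gene, with capitals on matches to the motifs named after it. The sequences are from the RefSeq promoter table (GRCh38.p14), and the positions are where the identical bases lie in GRCh37. They are EEF2 (chr19:3985442-3985711, minus strand), EEF2K (chr16:22217349-22217618, plus strand), RPS6KB1 (chr17:57970232-57970501, plus strand) and EIF4E (chr4:99850265-99850534, minus strand).
EEF2: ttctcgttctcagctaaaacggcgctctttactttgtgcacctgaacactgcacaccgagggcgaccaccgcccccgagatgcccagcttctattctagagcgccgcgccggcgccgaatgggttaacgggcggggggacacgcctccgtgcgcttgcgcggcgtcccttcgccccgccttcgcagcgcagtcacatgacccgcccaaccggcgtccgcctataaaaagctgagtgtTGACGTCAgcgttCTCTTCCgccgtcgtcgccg
EEF2K: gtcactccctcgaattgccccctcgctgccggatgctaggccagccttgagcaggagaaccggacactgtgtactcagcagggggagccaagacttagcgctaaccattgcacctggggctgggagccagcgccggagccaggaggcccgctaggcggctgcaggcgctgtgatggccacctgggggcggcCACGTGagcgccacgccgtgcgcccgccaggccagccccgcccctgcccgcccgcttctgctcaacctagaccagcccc
RPS6KB1: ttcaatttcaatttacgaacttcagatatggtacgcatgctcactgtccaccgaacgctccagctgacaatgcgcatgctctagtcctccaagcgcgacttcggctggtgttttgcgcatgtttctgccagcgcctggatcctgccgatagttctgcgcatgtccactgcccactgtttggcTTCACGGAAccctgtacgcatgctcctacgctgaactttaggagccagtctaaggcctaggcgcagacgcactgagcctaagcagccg
EIF4E: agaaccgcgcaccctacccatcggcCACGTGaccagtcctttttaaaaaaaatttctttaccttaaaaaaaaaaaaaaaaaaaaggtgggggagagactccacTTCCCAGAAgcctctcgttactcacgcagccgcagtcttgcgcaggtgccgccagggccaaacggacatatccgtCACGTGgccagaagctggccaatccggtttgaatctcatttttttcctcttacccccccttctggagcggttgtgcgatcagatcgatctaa

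Both strands of the full 300-base window (250 before the start, 50 after) were searched for 3 motifs that read the same on both strands and of which no matches overlapped in these runs. TTCNNNGAA, the core of STAT sites, was found at -68 of RPS6KB1 and at -147 of EIF4E, and 7.66% of the 35116 promoter windows hold it. CACGTG, the E-box bound by MYC and by TFEB and its relatives, was found at -59 of EEF2K, at -114 of 1 of the 2 listed starts of TSC2 and at -225 and -72 of EIF4E, against 7.26% of windows. TGACGTCA, the cAMP response element, was found at -13 of EEF2, against 1.85% of windows. EEF2 was also the only one of the member windows searched whose transcript opens with an unbroken run of at least 7 C or T bases beginning with C. This form was seen in 2.10% of windows and is known as the start of mRNAs whose translation follows mTORC1. Promoters of 9 members were in the table, and that of EIF4EBP1 was not printed or searched. A match describes letters only, and its absence says only that these letters are not in this window.

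The members spanned more than 2 orders of magnitude in level per length (CPM divided by kb of the Ensembl canonical transcript). In vehicle, EEF2 stood at 1156 CPM per kb ± 15.6 (SD, n = 2), followed by EIF4EBP1 at 155.6, EIF4E at 25.7, RPTOR at 20.5, MTOR at 14.3, TSC2 at 13.1, RPS6KB1 at 7.25, EEF2K at 4.48, TSC1 at 3.73 and RICTOR at 3.37. The substrate EEF2 was thus 258 times its kinase EEF2K per length in vehicle (248.6 and 268 in the 2 libraries). That ratio stayed between 235.1 and 313 in all 16 libraries, with the highest values under (2R,6R)-HNK (307 and 311) and E2+ketamine (306 and 313). From changes corrected for GC content (below), the log2 ratio was instead below vehicle in all 7 treatments, at -0.45 to -0.26.

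**Figure D1:**
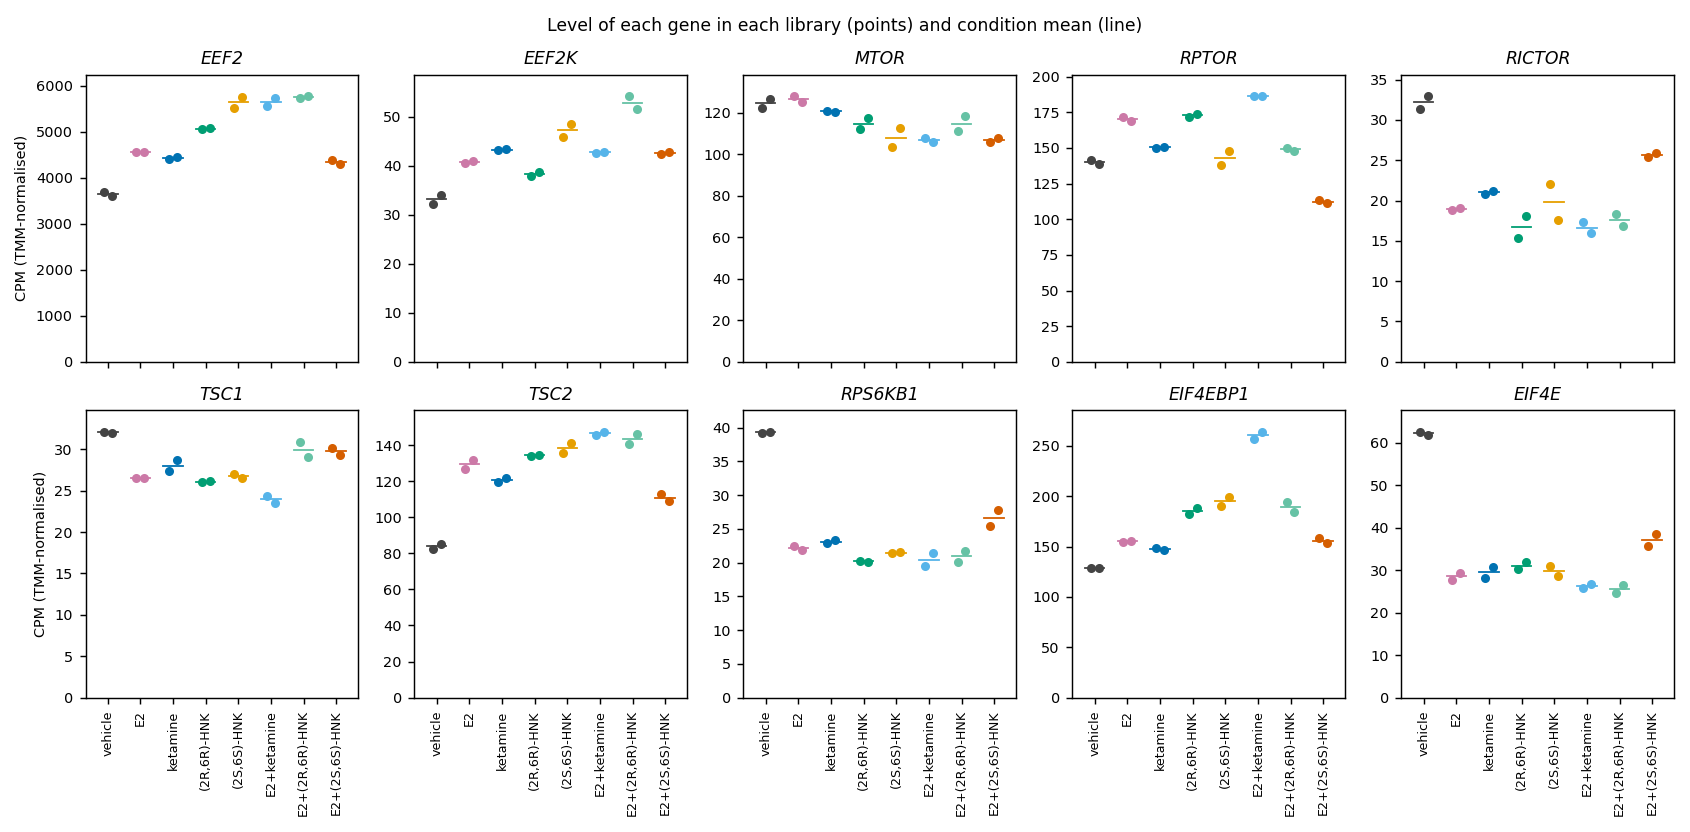
TMM-normalised CPM of each of the 10 genes (vertical axes, each from 0) in the 8 conditions, with 1 point per library and a line at the mean of 2. EIF4E lay at 62.7 and 61.8 CPM in vehicle and between 24.7 and 38.5 CPM in every treated library, and TSC2 lay at 82.5 and 85.4 CPM in vehicle and between 109 and 147 CPM in the treated ones.

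Each treatment was first compared with vehicle, which asks how the pathway's transcripts stood after E2, after each drug and after both. EEF2, EEF2K, TSC2 and EIF4EBP1 were higher and EIF4E, RPS6KB1 and RICTOR lower in all 7 treatments (quasi-likelihood test of edgeR, p adjusted over 16004 genes by Benjamini-Hochberg, threshold 0.05). Of all genes tested, 13.4% were higher and 21.4% lower in all 7. MTOR and TSC1 were lower in 5 treatments each, and RPTOR was higher in 5 and lower in 1. These directions did not all persist when each library was corrected for GC content and transcript length: EEF2K and TSC2 stayed higher and EIF4E lower in all 7, RICTOR passed in none, and RPTOR was lower in 6, of which E2+(2S,6S)-HNK was lower already before it. After correction 6.53% of all genes were higher and 9.28% lower in all 7. All 7 comparisons use the same 2 vehicle libraries, so their results are not independent of each other.

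Of the 10 genes, 9 passed under E2, where 62.5% of all genes tested did, 9 under ketamine (59.3% of all genes), 9 under (2S,6S)-HNK (67.9%) and 10 under its mirror image (2R,6R)-HNK (66.6%). With E2 present, 10 passed when the drug was ketamine (71.7%), 9 when it was (2S,6S)-HNK (59.7%) and 9 when it was (2R,6R)-HNK (69.7%). Higher calls numbered 5, 5, 4, 5, 5, 4 and 5 in that order, against 29.9%, 26.8%, 32.1%, 31.7%, 34.3%, 24% and 33.4% of all genes, and lower calls numbered 4, 4, 5, 5, 5, 5 and 4, against 32.7%, 32.5%, 35.8%, 34.9%, 37.4%, 35.7% and 36.3%. With most genes of the table passing, a call by itself set no member apart, and the sizes are given below. The median log2 fold change of the 10 genes lay between -0.16 (E2+(2S,6S)-HNK) and 0.15 (E2), where that of all genes lay between -0.064 and -0.0027. After correction these 2 medians changed sign, to 0.037 and -0.093, as did those of ketamine (0.029 to -0.11), (2R,6R)-HNK (0.046 to -0.064) and E2+ketamine (0.074 to -0.045), while that of all genes lay between -4.9e-05 and 0.0061. A change of at least 2-fold was reached by EIF4E alone under E2, under each drug without E2 and under E2+(2R,6R)-HNK (1.81% of all genes for E2, 3.56% for ketamine, 9.08% for (2S,6S)-HNK, 3.75% for (2R,6R)-HNK and 11.5% for the combination), by EIF4E and EIF4EBP1 under E2+ketamine (11%) and by none under E2+(2S,6S)-HNK (5.85%).

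Across all genes the changes followed base composition. Over the 15349 tested genes with an annotated transcript, the Spearman correlation of log2 fold change with GC content was 0.76, 0.65, 0.66, 0.76, 0.78, 0.45 and 0.67 in the order above (E2 first), given as descriptions since genes are not replicates and the comparisons share vehicle. Under E2+ketamine, the 2389 genes below 40% GC had a median log2 fold change of -0.81 and the 2641 genes of 60% and above had one of 0.72. The members lie at both ends: EIF4E (34.5% GC), RICTOR (36.5%) and RPS6KB1 (37.2%) at the low end, TSC1 (48.3%), EEF2K (50.2%) and MTOR (52.3%) in the middle, and EEF2 (59.9%), RPTOR just above it, TSC2 (60.4%) and EIF4EBP1 (62.9%) at the high end. For this reason corrected log2 fold changes are given beside the fold changes of the members, while levels, ratios within a library and 2-fold counts are given without correction. After the correction 8, 8, 9, 6, 8, 8 and 8 members passed in the 7 comparisons in the same order, where 36.5%, 47.9%, 56.3%, 43.9%, 50.9%, 55.6% and 58.6% of all genes did. Of these, 2, 2, 4, 3, 4, 4 and 4 were higher, against 17.5%, 22.8%, 27.8%, 21.7%, 25.5%, 26.8% and 29.2% of all genes, and 6, 6, 5, 3, 4, 4 and 4 were lower, against 19%, 25.1%, 28.5%, 22.2%, 25.5%, 28.8% and 29.4%.

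**Figure D2:**
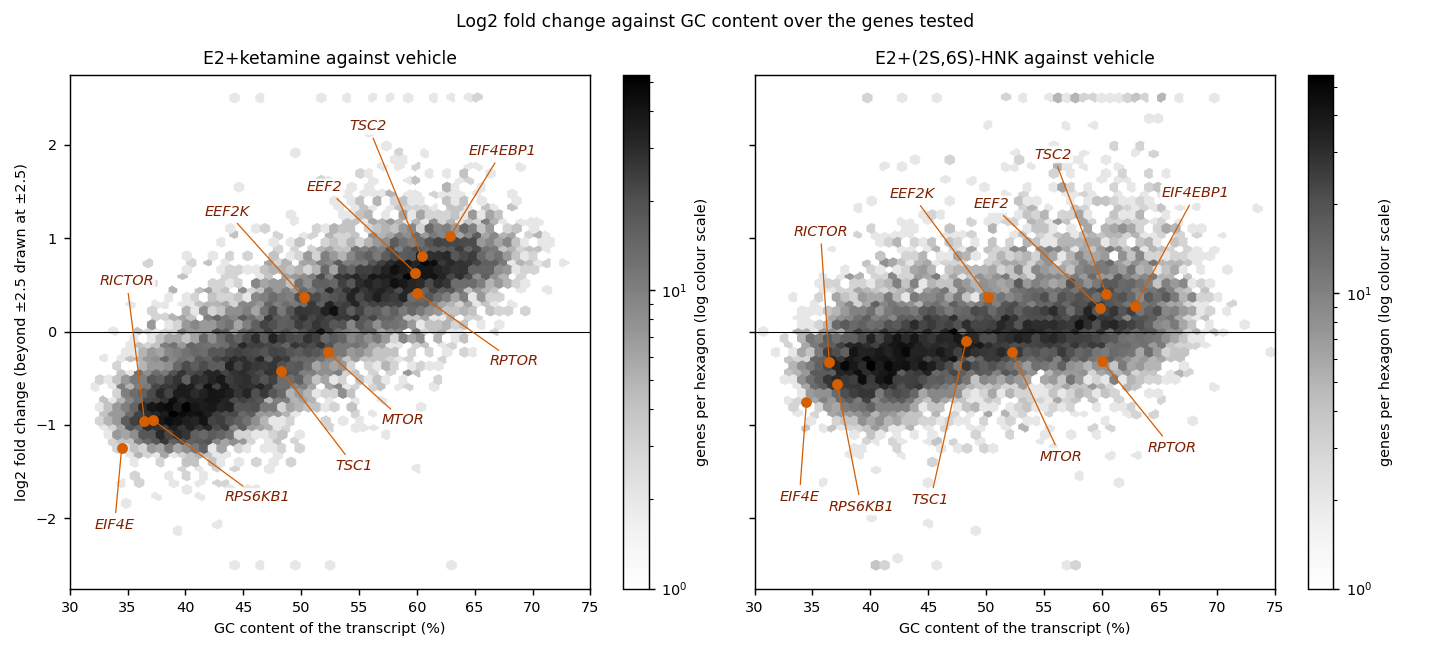
Log2 fold change against vehicle (vertical axis) against GC content of the canonical transcript in % (horizontal axis) for E2+ketamine (left) and E2+(2S,6S)-HNK (right), with shading for the number of genes per hexagon and the 10 members as points. Under E2+ketamine (Spearman 0.78 over all genes) the members run from EIF4E at -1.24 to EIF4EBP1 at 1.02, with MTOR at -0.22 where the median of genes of 50% to 55% GC was 0.21, while under E2+(2S,6S)-HNK (Spearman 0.45 over all genes) they run from -0.75 to 0.40.

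EEF2, the translocation factor of elongation (chromosome 19, 3976054 to 3985461 in GRCh37, minus strand), stood at 3685 and 3615 CPM in the vehicle libraries. It reached 4573 and 4569 CPM under E2, 4408 and 4454 under ketamine, 5510.4 and 5769 under (2S,6S)-HNK and 5052 and 5080.5 under (2R,6R)-HNK. With E2 added it reached 5559 and 5735 CPM with ketamine, 4399.6 and 4309 with (2S,6S)-HNK and 5740.5 and 5785 with (2R,6R)-HNK. Every treated library exceeded both vehicle libraries, and the 3 highest conditions, (2S,6S)-HNK, E2+ketamine and E2+(2R,6R)-HNK, spanned 5510.4 to 5785 CPM, with (2S,6S)-HNK overlapping both of the others. The log2 fold change ran from 0.25 ± 0.018 (SE) under E2+(2S,6S)-HNK to 0.66 ± 0.018 under E2+(2R,6R)-HNK, with adjusted p between 1.70e-34 and 1.07e-17 (edgeR quasi-likelihood test). After the GC correction it was 0.21 under (2S,6S)-HNK and E2+(2R,6R)-HNK, 0.080 under E2+(2S,6S)-HNK, 0.047 under E2+ketamine, 0.038 under (2R,6R)-HNK, 0.010 under ketamine (adjusted p = 0.488, edgeR) and -0.034 under E2 (adjusted p = 0.0118, edgeR). The corrected changes were thus larger under (2S,6S)-HNK and E2+(2R,6R)-HNK than under the other 5 treatments, which lay between -0.034 and 0.080.

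EEF2K, the calmodulin-dependent kinase that inactivates eEF2 (chromosome 16, 22217599 to 22300059, plus strand), had 32.2 and 34.1 CPM in vehicle, 40.6 and 40.9 under E2, 43.3 and 43.4 under ketamine, 46.0 and 48.5 under (2S,6S)-HNK and 38.0 and 38.8 under (2R,6R)-HNK. With E2 it had 42.6 and 42.9 CPM with ketamine, 42.5 and 42.9 with (2S,6S)-HNK and 54.3 and 51.5 with (2R,6R)-HNK. No treated library overlapped vehicle, and E2+(2R,6R)-HNK was above every other condition. Its log2 fold change was smallest under (2R,6R)-HNK alone (0.21 ± 0.048, adjusted p = 1.06e-04, edgeR) and largest under (2R,6R)-HNK with E2 (0.68 ± 0.046, adjusted p = 2.30e-18, edgeR). The corrected values ran from 0.30 to 0.66, with adjusted p between 2.90e-22 and 7.17e-08. A lncRNA gene on the other strand shares 714 bases of exon with the EEF2K transcript, and whether counting used strand is not given in the sources used here.

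EIF4E, which binds the mRNA cap (chromosome 4, 99800427 to 99850284, minus strand), showed the largest change of the 10 genes in each of the 7 treatments before correction, and after it only under E2 and ketamine. It had 62.7 and 61.8 CPM in vehicle and 27.7 and 29.4 under E2, 28.2 and 30.9 under ketamine, 31.1 and 28.7 under (2S,6S)-HNK and 30.2 and 32.0 under (2R,6R)-HNK. With E2 present it had 25.9 and 26.7 CPM with ketamine, 35.7 and 38.5 with (2S,6S)-HNK and 24.7 and 26.4 with (2R,6R)-HNK. All 14 treated libraries lay well below vehicle, and the conditions other than vehicle and E2+(2S,6S)-HNK spanned only 24.7 to 32.0 CPM. The log2 fold change was -1.13 ± 0.054 under E2, -1.08 ± 0.053 under ketamine, -1.29 ± 0.054 under E2+(2R,6R)-HNK and, at its smallest, -0.75 ± 0.052 under E2+(2S,6S)-HNK, with adjusted p of at most 1.25e-17 (edgeR). EIF4E has the lowest GC content of the members, and after the correction the fall was between -0.48 and -0.29, still called in all 7 (adjusted p of at most 7.79e-07, edgeR). Pseudogenes of EIF4E are annotated, and its values are uncertain to the extent that reads are shared with them.

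EIF4EBP1, which holds eIF4E inactive until mTORC1 phosphorylates it, moved the other way before correction. Its vehicle libraries had 129 CPM each, E2 155 in both libraries, ketamine 149 and 147, (2S,6S)-HNK 190.3 and 199, and (2R,6R)-HNK 182 and 188. E2+ketamine had 257 and 264 CPM, above every other library, while E2+(2S,6S)-HNK had 159 and 153 and E2+(2R,6R)-HNK 194 and 184. Its log2 fold change was 0.20 ± 0.031 under ketamine, 0.27 ± 0.031 under E2 and 1.02 ± 0.030 under both (adjusted p = 1.48e-07, 9.79e-11 and 9.87e-33, edgeR). After correction EIF4EBP1 was lower under E2 (-0.12) and ketamine (-0.068), not called under (2R,6R)-HNK (-0.019, adjusted p = 0.589, edgeR), and higher under (2S,6S)-HNK (0.12), E2+ketamine (0.26), E2+(2R,6R)-HNK (0.084) and E2+(2S,6S)-HNK (0.058). E2+ketamine was thus the highest condition with and without the correction. EIF4EBP1 also has annotated pseudogenes, with the same uncertainty.

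The ratio of EIF4EBP1 to EIF4E per length, inhibitor over target, was 6.03 and 6.11 in the 2 vehicle libraries and between 11.7 and 29.1 in the treated ones. E2+ketamine had the highest mean, 29.1 ± 0.041 (SD, n = 2), and E2+(2S,6S)-HNK the lowest among treatments, 12.4 ± 0.99. No treated library overlapped vehicle. The 2 genes lie at opposite ends of the GC range (62.9% and 34.5%), and the correction reduced the change of the ratio. In log2 the ratio was 1.03 to 2.26 above vehicle over the 7 treatments, and 0.27 to 0.63 above it from the corrected changes, with E2+ketamine highest in both.

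**Figure D3:**
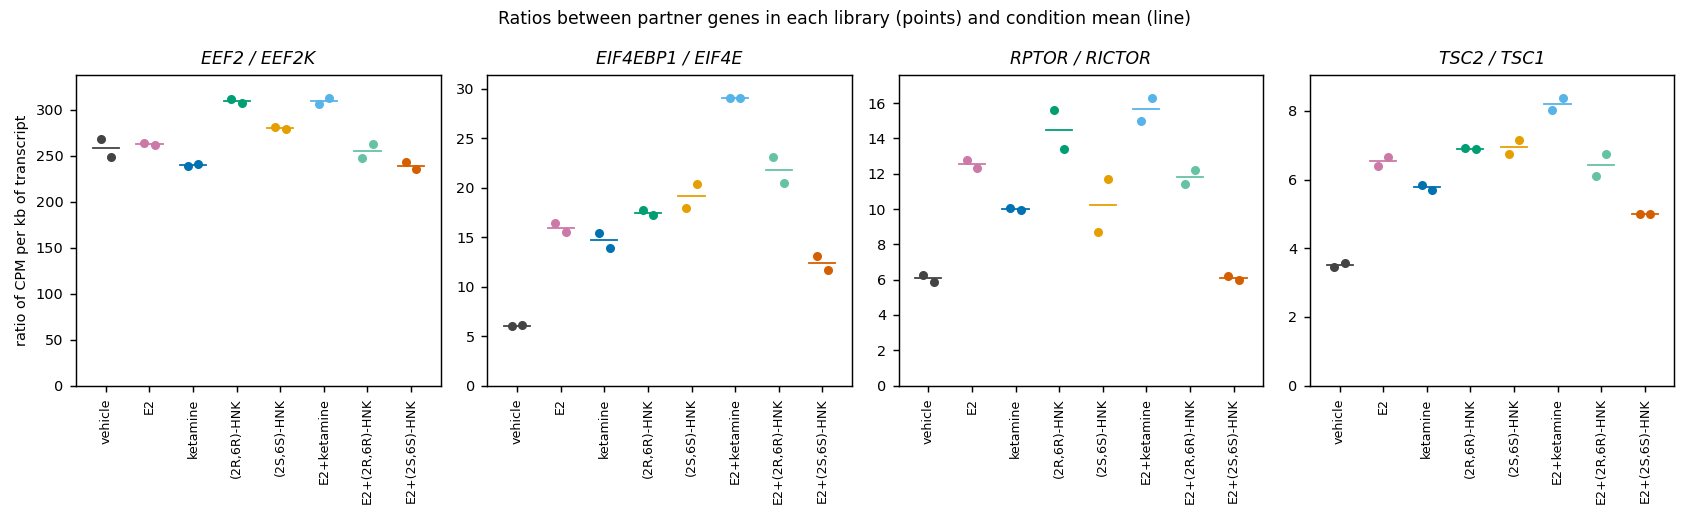
Ratios of CPM per kb (vertical axes, from 0) between partner genes in each library (points) and as condition means (lines) in the 8 conditions. EIF4EBP1 over EIF4E is lowest in vehicle (6.03 and 6.11) and highest in E2+ketamine, whereas EEF2 over EEF2K stays between 235.1 and 313 in every library.

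MTOR itself (chromosome 1, 11166592 to 11322613, minus strand) changed little. It had 122 and 127 CPM in vehicle, 128 and 125 under E2, 121 and 120.3 under ketamine, 103 and 113 under (2S,6S)-HNK and 112 and 117 under (2R,6R)-HNK. With E2 it had 108 and 106 CPM with ketamine, 106 and 108 with (2S,6S)-HNK and 111 and 118 with (2R,6R)-HNK, so that E2 overlapped vehicle and the rest lay below it. For MTOR it was, in log2, 0.025 ± 0.035 under E2 (95% interval -0.046 to 0.10) and -0.045 ± 0.035 under ketamine (-0.12 to 0.025), neither called. It was -0.21 under (2S,6S)-HNK and -0.22 under both E2+ketamine and E2+(2S,6S)-HNK, with adjusted p of at most 1.64e-06 (edgeR). The falls under (2R,6R)-HNK (-0.12, adjusted p = 0.00262, edgeR) and E2+(2R,6R)-HNK (-0.12, adjusted p = 0.00279, edgeR) were both lost without vehicle replicate 2 (-0.096 and -0.094), the former also without (2R,6R)-HNK replicate 1 (-0.086) and the latter without E2+(2R,6R)-HNK replicate 1 (-0.074). With upper-quartile normalisation neither was called (-0.042 and -0.036) and MTOR was called higher under E2 (0.089, adjusted p = 0.0264, edgeR). After the GC correction MTOR was between -0.28 and -0.12 and called lower in the 6 treatments other than E2 (-0.064, adjusted p = 0.0913, edgeR). The exons of MTOR share 89 bases with the antisense gene MTOR-AS1.

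RPTOR, the scaffold of mTORC1 that recruits its substrates (chromosome 17, 78518619 to 78940171, plus strand), had 142 and 139 CPM in vehicle, 172 and 169 under E2, 150.0 and 151 under ketamine, 138 and 148 under (2S,6S)-HNK and 172 and 174 under (2R,6R)-HNK. With E2 it had 187 and 186 CPM with ketamine, 114 and 111 with (2S,6S)-HNK and 150.1 and 148 with (2R,6R)-HNK. (2S,6S)-HNK alone overlapped vehicle, and its combination with E2 was the only condition wholly below vehicle. With upper-quartile normalisation (2S,6S)-HNK was called higher (0.10, adjusted p = 0.00253, edgeR, against 0.028 without it). In log2 fold change RPTOR ran from -0.32 ± 0.031 under E2+(2S,6S)-HNK (adjusted p = 7.10e-13, edgeR) to 0.41 ± 0.030 under E2+ketamine (adjusted p = 2.09e-17, edgeR). That of E2+(2R,6R)-HNK (0.088, adjusted p = 0.00844, edgeR) was not called without E2+(2R,6R)-HNK replicate 1 (0.077) or vehicle replicate 2 (0.072). After correction RPTOR was at -0.047 under (2R,6R)-HNK (not called) and lower in the other 6 treatments, from -0.069 under E2 to -0.47 under E2+(2S,6S)-HNK, so the sign of the 5 rises turned and the fall under E2+(2S,6S)-HNK did not. RPTOR shares 60 bases of exon with another protein-coding gene on the same strand, and up to 130 bases with lncRNA genes on the other strand.

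RICTOR, the scaffold of mTORC2 (chromosome 5, 38938022 to 39074504, minus strand), had 31.4 and 33.0 CPM in vehicle, 18.8 and 19.1 under E2, 20.8 and 21.2 under ketamine, 22.1 and 17.6 under (2S,6S)-HNK and 15.4 and 18.1 under (2R,6R)-HNK. With E2 it had 17.3 and 15.9 CPM with ketamine, 25.4 and 25.9 with (2S,6S)-HNK and 18.4 and 16.8 with (2R,6R)-HNK. All treated libraries lay below vehicle, with E2+(2S,6S)-HNK nearest to it. The log2 fold change was between -0.95 ± 0.074 (E2+ketamine) and -0.33 ± 0.069 (E2+(2S,6S)-HNK), adjusted p of at most 6.26e-05 (edgeR). After correction it lay between -0.16 and 0.082 and was called in none of the 7 treatments (edgeR, adjusted p from 0.0502 to 0.985, with 2 of 7 under an unadjusted p of 0.05). RICTOR exons share 229 bases with OSMR on the other strand.

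The ratio of RPTOR to RICTOR per length was 6.29 and 5.86 in vehicle and 6.22 and 5.97 under E2+(2S,6S)-HNK, which overlapped. In the other 6 treatments it was between 8.72 and 16.3, with the highest mean under E2+ketamine (15.7 ± 0.93, SD, n = 2). In log2 these 6 ratios were 0.72 to 1.36 above vehicle, whereas from the corrected changes the differences from vehicle lay between -0.36 and 0.11, and E2+(2S,6S)-HNK went from 0.0074 to -0.55.

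TSC2, the GTPase-activating subunit that switches off RHEB (chromosome 16, 2097968 to 2139492, plus strand), rose in every treatment with and without the correction. It had 82.5 and 85.4 CPM in vehicle, 127 and 132 under E2, 119 and 122 under ketamine, 135 and 141 under (2S,6S)-HNK and 134 in both libraries of (2R,6R)-HNK. With E2 it had 146 and 147 CPM with ketamine, 113 and 109 with (2S,6S)-HNK and 141 and 146 with (2R,6R)-HNK. The log2 fold change ran from 0.40 ± 0.033 (E2+(2S,6S)-HNK) to 0.80 ± 0.033 (E2+ketamine), adjusted p of at most 4.82e-15 (edgeR). The corrected values fell in a narrow range, 0.23 to 0.32, with adjusted p of at most 6.29e-11 (edgeR). TSC2 shares 784 bases of exon with PKD1 on the other strand.

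TSC1, which stabilises TSC2 (chromosome 9, 135766735 to 135822261, minus strand), had 32.1 and 32.0 CPM in vehicle and between 23.6 and 30.9 CPM in all treated libraries. It was lower under E2 (-0.27 ± 0.054), ketamine (-0.19 ± 0.052), (2S,6S)-HNK (-0.26 ± 0.054), (2R,6R)-HNK (-0.30 ± 0.054) and E2+ketamine (-0.42 ± 0.055), with adjusted p of at most 0.00122 (edgeR). Under E2+(2R,6R)-HNK it was -0.10 (95% interval -0.20 to 0.0085) and under E2+(2S,6S)-HNK -0.11 (-0.21 to -0.00032), not called. The ketamine call was lost with upper-quartile normalisation (-0.11, adjusted p = 0.0669, edgeR), and after the GC correction TSC1 was called lower in 4 treatments, E2 (-0.17), ketamine (-0.13), (2S,6S)-HNK (-0.13) and E2+ketamine (-0.16). It was then at 0.016 under E2+(2S,6S)-HNK and at 0.010 under E2 with its mirror image, not called in either. The 2 subunits thus differed in direction in the treatments where TSC1 was called, and the ratio of TSC2 to TSC1 per length was 3.44 and 3.58 in vehicle and 4.99 to 8.39 in the treated libraries. In log2 this ratio was 0.51 to 1.22 above vehicle over the 7 treatments, and 0.22 to 0.45 above it from the corrected changes. TSC1 shares 53 bases of exon with GFI1B on the other strand.

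RPS6KB1, the S6 kinase that mTORC1 activates (chromosome 17, 57970407 to 58027935, plus strand), had 39.3 and 39.4 CPM in vehicle, 22.5 and 21.9 under E2, 22.9 and 23.4 under ketamine, 21.4 and 21.6 under (2S,6S)-HNK and 20.3 and 20.1 under (2R,6R)-HNK. With E2 it had 19.5 and 21.5 CPM with ketamine, 25.4 and 27.8 with (2S,6S)-HNK and 20.1 and 21.8 with (2R,6R)-HNK. As for EIF4E and RICTOR, E2+(2S,6S)-HNK was the treatment nearest to vehicle. The log2 fold change was between -0.96 ± 0.059 ((2R,6R)-HNK) and -0.56 ± 0.057 (E2+(2S,6S)-HNK), adjusted p of at most 2.94e-12 (edgeR). After correction it was between -0.28 and -0.21 and called in 6 treatments, and it was -0.088 under E2+ketamine (adjusted p = 0.205, edgeR). RPS6KB1 shares 149 bases of exon with another protein-coding gene on the same strand.

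**Figure D4:**
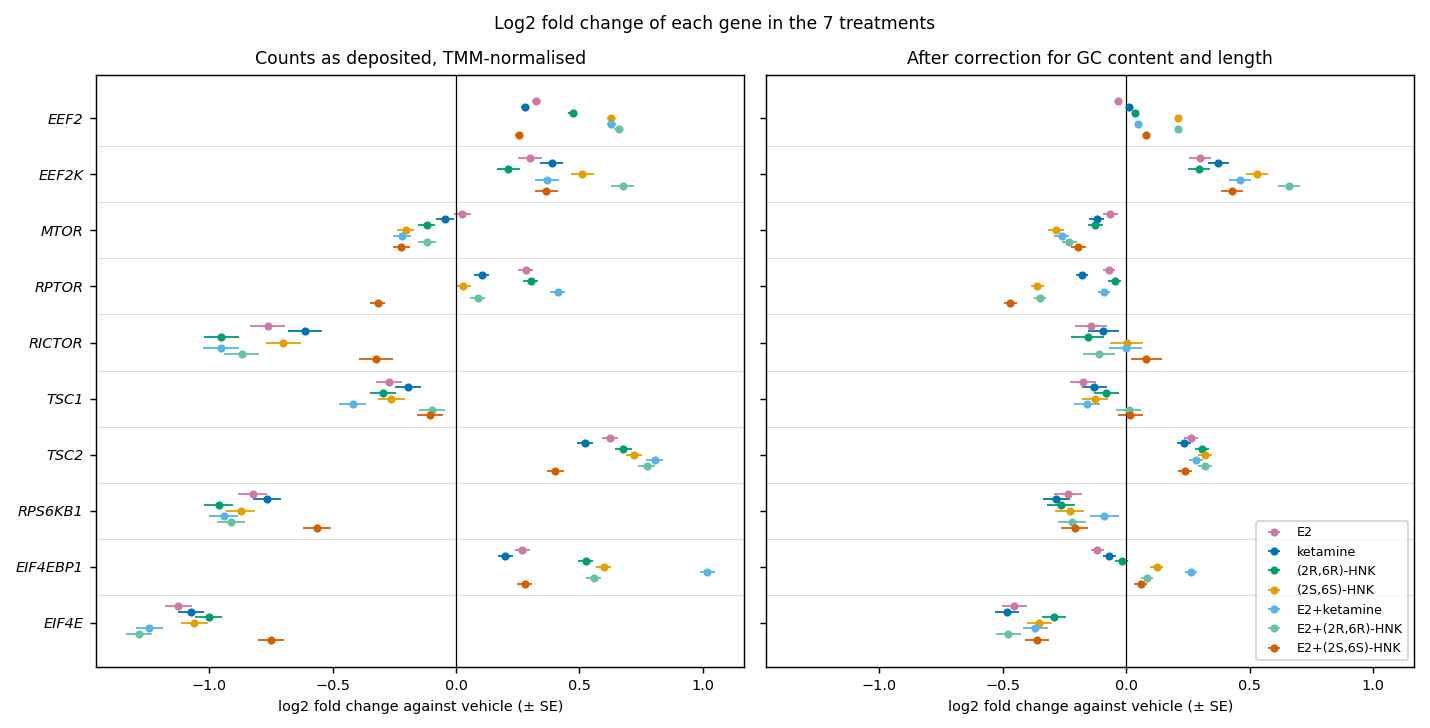
Log2 fold change against vehicle (horizontal axis, ± SE of the edgeR fit) of the 10 genes (rows) in the 7 treatments (colours), from the counts as deposited (left) and after correction for GC content and length (right). EEF2K, TSC2 and EIF4E keep their side of 0 in all 7 treatments on the right, while RICTOR draws in to between -0.16 and 0.082.

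Ketamine and its 2 metabolites were then compared at the same dose and time, in 3 pairs without E2 and 3 pairs with E2 in both arms. (2R,6R)-HNK and (2S,6S)-HNK are mirror images of one another, and each differs from ketamine in carrying a hydroxyl group on the ring and lacking the methyl group on the amine. Of the 60 combinations of gene and pair, 41 were called, and the same 41 passed when p-values were adjusted over the 6 pairs as well as over genes. Members called numbered 7 for ketamine against (2R,6R)-HNK (45.4% of all genes), 6 for ketamine against (2S,6S)-HNK (46.1%) and 6 for the metabolites against each other (43.5%). With E2 they numbered 5 (52%), 8 (66.8%) and 9 (54%) in the same order. The count of 5 for E2+ketamine against E2+(2R,6R)-HNK lay near the share of all genes. The other 5 counts were nominally above theirs before correction. After it, 4 (36.8%), 7 (40.6%) and 5 (45.4%) members were called without E2 and 5 (49.9%), 4 (55.1%) and 5 (27.1%) with E2. Then the counts for ketamine against (2S,6S)-HNK and for E2+(2R,6R)-HNK against E2+(2S,6S)-HNK lay above the share of all genes. That for E2+ketamine against E2+(2S,6S)-HNK lay below it, and the rest lay near it. So few members make these counts coarse, and no test compared them with the shares. The shares also cover genes with fewer counts than any member, such as CSF1R, and the part of this was not tested.

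Without E2, EEF2 was lower with ketamine than with (2R,6R)-HNK by a log2 difference of -0.19 (95% interval -0.23 to -0.16) and lower than with (2S,6S)-HNK by -0.35 (-0.38 to -0.31), and (2R,6R)-HNK was in turn below (2S,6S)-HNK by -0.15 (-0.19 to -0.12). After correction these were -0.027, -0.20 and -0.17, still called (adjusted p = 0.0455, 3.81e-25 and 6.79e-22, edgeR). EEF2K was lower with (2R,6R)-HNK than with (2S,6S)-HNK by -0.30 (-0.39 to -0.21, corrected -0.23), and RPTOR was higher by 0.27 (0.21 to 0.33, corrected 0.31). For these 3 genes the mirror-image metabolites thus differed with and without the correction, with ratios of (2R,6R)-HNK over (2S,6S)-HNK of 0.898 for EEF2, 0.812 for EEF2K and 1.21 for RPTOR before it. RICTOR was lower with (2R,6R)-HNK than with (2S,6S)-HNK by -0.25 (-0.40 to -0.10), but not called after correction (-0.16) or without (2R,6R)-HNK replicate 1 (-0.13) or (2S,6S)-HNK replicate 1 (-0.079), and the 2 libraries of (2S,6S)-HNK were themselves 22.1 and 17.6 CPM.

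For 4 genes no difference between the metabolites was called: EIF4E at 0.058 (95% interval -0.056 to 0.17), TSC1 at -0.035 (-0.15 to 0.075), TSC2 at -0.044 (-0.11 to 0.020) and RPS6KB1 at -0.088 (-0.21 to 0.038). The widest of these intervals reaches -0.21, and they do not show that the compounds act alike. MTOR (0.086, adjusted p = 0.0486, edgeR) and EIF4EBP1 (-0.073, adjusted p = 0.0434, edgeR) were only just called, whereas their corrected differences were larger (0.16 and -0.14, adjusted p = 1.23e-05 and 1.18e-06, edgeR). Before correction MTOR was not called without (2R,6R)-HNK replicate 2 (0.054) or (2S,6S)-HNK replicate 1 (0.028), nor EIF4EBP1 without (2R,6R)-HNK replicate 1 (-0.049) or (2S,6S)-HNK replicate 2 (-0.038) or with the replicate block (adjusted p = 0.0501, edgeR). EIF4EBP1 also lost its call with RLE or upper-quartile normalisation, no filter, DESeq2 or a fit of the compared groups only (-0.073 to -0.065), and MTOR with the stricter filter or halved counts (0.081 and 0.083). EIF4EBP1 was lower with ketamine than with either metabolite, by -0.40 (-0.46 to -0.34) against (2S,6S)-HNK and -0.33 (-0.39 to -0.27) against (2R,6R)-HNK. After correction the former was called (-0.19) and the latter was not (-0.050, adjusted p = 0.106, edgeR).

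With E2 in both arms the order of the metabolites was the reverse for EEF2 and EEF2K: E2+(2R,6R)-HNK exceeded E2+(2S,6S)-HNK by 0.40 (95% interval 0.37 to 0.44, corrected 0.13) for EEF2 and by 0.31 (0.22 to 0.40, corrected 0.23) for EEF2K, and all 4 were called. RPTOR stayed higher with (2R,6R)-HNK, by 0.41 (0.35 to 0.47, corrected 0.12, called). EIF4E, RPS6KB1 and RICTOR were lower with E2+(2R,6R)-HNK than with E2+(2S,6S)-HNK by -0.54, -0.35 and -0.54, and after correction only RICTOR was called (-0.19, adjusted p = 0.0189, edgeR, against -0.12 for EIF4E and -0.0093 for RPS6KB1). E2+ketamine had more EIF4EBP1 than E2+(2S,6S)-HNK (0.74, corrected 0.21) and E2+(2R,6R)-HNK (0.46, corrected 0.18), and more RPTOR (0.73 and 0.32, corrected 0.38 and 0.26), all called. TSC1 did not differ in a called way between the metabolites with E2 (0.0089, -0.10 to 0.11), and was lower with E2+ketamine than with either (-0.32 and -0.31, corrected -0.17 and -0.18, called). EEF2 did not differ in a called way between E2+ketamine and E2+(2R,6R)-HNK before correction (-0.029, 95% interval -0.065 to 0.0062) and was lower with E2+ketamine after it (-0.16, adjusted p = 4.11e-21, edgeR).

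**Figure D5:**
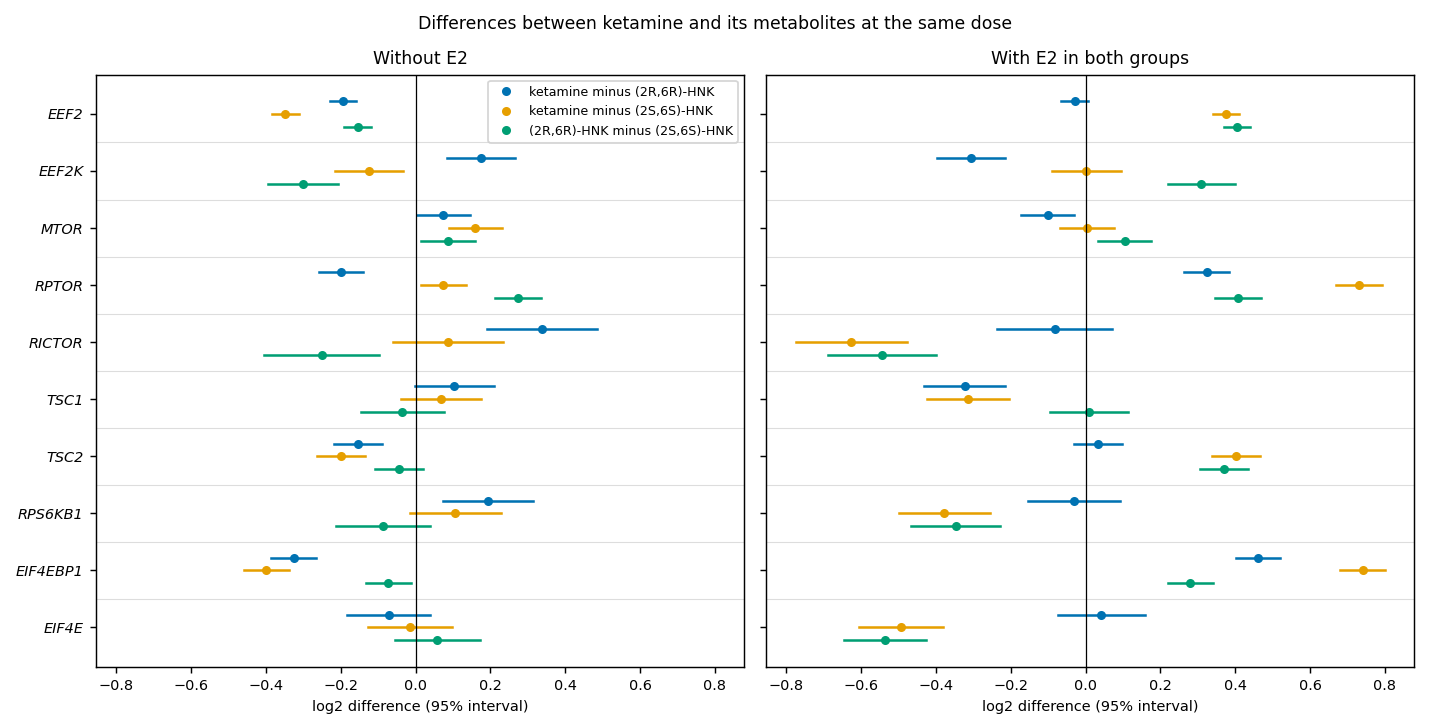
Log2 differences (points) with 95% intervals (lines) between ketamine and its metabolites at 400 nM for the 10 genes, without E2 (left) and with 0.1 nM E2 in both arms (right), from the counts as deposited. The difference between (2R,6R)-HNK and (2S,6S)-HNK is below 0 on the left and above 0 on the right for EEF2 (-0.15 and 0.40) and EEF2K (-0.30 and 0.31).

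Each combination was also compared with E2 alone and with its drug alone. The comparisons with E2 share the same E2 libraries and are not independent of each other. Against E2, members called numbered 7 with ketamine added (50.3% of all genes), 8 with (2S,6S)-HNK (55.1%) and 8 with (2R,6R)-HNK (50.5%), the last falling to 5 without E2+(2R,6R)-HNK replicate 1. After the GC correction they numbered 5 (34% of all genes), 7 (51.4%) and 6 (50.7%). MTOR was lower than under E2 in all 3 combinations, at -0.24, -0.25 and -0.14 in that order (corrected -0.20, -0.13 and -0.17, called), although the (2R,6R)-HNK value was not called without E2+(2R,6R)-HNK replicate 1 (-0.098). EIF4EBP1 rose further when ketamine was added to E2 (0.75 ± 0.030, corrected 0.38, adjusted p = 3.37e-26 and 6.28e-22, edgeR). EEF2K rose when (2R,6R)-HNK was added to E2 (0.38 ± 0.045, corrected 0.36, called), and was not called when ketamine (0.069, 95% interval -0.025 to 0.16) or (2S,6S)-HNK (0.066, -0.026 to 0.16) was, although after correction these were called at 0.16 and 0.13. RPTOR was lower in E2+(2S,6S)-HNK than in E2 by -0.60 ± 0.030 (corrected -0.40, called).

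Against the drug alone, 9 members were called when the drug was ketamine (57.5% of all genes), 9 when it was (2S,6S)-HNK (51.3%) and 6 when it was (2R,6R)-HNK (47.9%). The correction left 5 (40.1% of all genes), 6 (28%) and 6 (48.8%) called. Adding E2 to ketamine raised EIF4EBP1 by 0.82 ± 0.030 (corrected 0.33) and EEF2 by 0.35 ± 0.018 (corrected 0.036), and MTOR changed by -0.17 ± 0.035 (corrected -0.14), all called. Adding E2 to (2R,6R)-HNK raised EEF2K by 0.46 ± 0.045 (corrected 0.36) and EEF2 by 0.19 ± 0.018 (corrected 0.17), and RPTOR changed by -0.21 ± 0.030 (corrected -0.30), all called. Adding E2 to (2S,6S)-HNK changed EEF2 by -0.37 ± 0.018 (corrected -0.13), RPTOR by -0.35 ± 0.031 (corrected -0.11) and TSC2 by -0.32 ± 0.032 (corrected -0.079), all called. So EEF2 was higher with E2 than without it in the presence of ketamine or (2R,6R)-HNK, and lower with E2 in the presence of (2S,6S)-HNK, before and after correction.

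The difference itself was tested as an interaction, the log2 change a drug made in the presence of E2 minus the change it made without E2. Members called numbered 7 for ketamine (37.5% of all genes), 9 for (2S,6S)-HNK (65.1%) and 9 for (2R,6R)-HNK (56.6%), and 8, 7 and 7 after correction (33.5%, 38.3% and 42.8%). For EIF4E the interaction was 0.96, 1.44 and 0.84 in that order (corrected 0.57, 0.44 and 0.27, called), so the fall under both agents was smaller than the sum of the separate falls. TSC2 rose by less than the sum of its separate rises, with -0.34, -0.94 and -0.53 (corrected -0.21, -0.34 and -0.25, called). EIF4EBP1 exceeded the sum of the separate changes for ketamine (0.55, corrected 0.45, called), fell short of it for (2S,6S)-HNK (-0.59) and (2R,6R)-HNK (-0.24), and turned to 0.051 (not called) and 0.22 (called) after correction. EEF2K fell short of the sum for ketamine (-0.32, corrected -0.21, called) and (2S,6S)-HNK (-0.45, corrected -0.40, called). EEF2 was 0.025 for ketamine (95% interval -0.025 to 0.075, not called, 0.070 after correction, called), -0.14 for (2R,6R)-HNK (0.21 after correction, both called) and -0.70 for (2S,6S)-HNK (-0.095 after correction, called).

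A wider list of 105 genes around the members, drawn from textbook pathway membership, was counted in the same fits, and 102 of them were tested. Like the members, the list was chosen with earlier results of these data known. Against vehicle 80 passed under E2 (62.5% of all genes), 80 under ketamine (59.3%), 88 under (2S,6S)-HNK (67.9%), 87 under its mirror image (66.6%), and 93 (71.7%), 79 (59.7%) and 87 (69.7%) when E2 was added to these 3 drugs, or 77.5% to 91.2% of the list. Higher and lower calls numbered 40 and 40 under E2 (29.9% and 32.7% of all genes) and 47 and 46 under E2+ketamine (34.3% and 37.4%). Higher and lower calls under E2+(2S,6S)-HNK numbered 31 and 48, where all genes were also called lower more often than higher (24% and 35.7%). After correction they numbered 18 and 31 under E2 (17.5% and 19% of all genes), 27 and 37 under ketamine (22.8% and 25.1%), 33 and 41 under (2S,6S)-HNK (27.8% and 28.5%) and 28 and 39 under its mirror image (21.7% and 22.2%). With E2 added to these 3 drugs they were 32 and 37 (25.5% and 25.5%), 36 and 41 (26.8% and 28.8%), and 42 and 38 (29.2% and 29.4%). Before correction the median log2 fold change of the list lay between -0.097 and 0.027. Among the other mTOR complex subunits, 8 genes, PRR5 of mTORC2 rose in 7 of 7 treatments with a mean log2 fold change of 0.64 (corrected 0.076, called in 1) and MAPKAP1, the mSIN1 subunit, fell in 7 of 7 with a mean of -0.17 (corrected -0.17, called in 7). Of the TSC complex and RHEB list, RHEBL1, a relative of RHEB, was called higher in 4 treatments (mean 0.20, corrected 0.050, called higher in 1 and lower in 1). RHEB, the GTPase that activates mTORC1, was called lower in 6 treatments (mean -0.19, corrected -0.094, called in 4).

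Of the 27 tested genes of amino acid sensing, 10 were higher and 9 lower under E2 and 13 higher and 11 lower under E2+ketamine, beside 29.9% and 32.7%, and 34.3% and 37.4%, of all genes. After correction they were 3 and 6, and 6 and 7, beside 17.5% and 19%, and 25.5% and 25.5%. WDR24, a GATOR2 subunit, rose in 7 of 7 treatments (mean 0.63, corrected 0.14, called higher in 4) and MIOS, another subunit of the same complex, fell in 7 of 7 (mean -0.90, corrected -0.34, called in 6). Of 21 tested upstream genes, 7 were higher and 10 lower under E2 (4 and 5 after correction, shares of all genes as above). They were 9 and 8 under ketamine (8 and 5 after correction) and 9 and 12 under E2+ketamine (6 and 9 after correction). STK11, the kinase LKB1 that activates AMPK, was higher in 7 of 7 (mean 0.60, corrected 0.035, called higher in 3 and lower in 1). PIK3R1, a regulatory subunit of PI3K, was lower in 7 of 7 (mean -0.82, corrected -0.29, called in 4). Among mTORC1 substrates TFEB, a lysosomal transcription factor, rose in 7 of 7 (mean 0.81, corrected 0.29, called in 5) and LPIN1, a lipin, fell in 7 of 7 (mean -0.48, corrected -0.31, called in 6).

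Genes that act beside EIF4E and EEF2 are closest to the members, and their counts stand against 24% to 34.3% of all genes higher and 32.5% to 37.4% lower over the 7 treatments, or 17.5% to 29.2% and 19% to 29.4% after correction. Of the 9 tested genes of the eIF4F group, 1 to 3 were higher and 4 to 6 lower in each treatment (1 to 3 and 5 to 7 after correction), with MKNK2, a kinase of eIF4E, higher in 7 of 7 (mean 0.54, corrected 0.11, called higher in 5 and lower in 2) and EIF4G2 lower in 7 of 7 (mean -0.65, corrected -0.29, called in 7). Of the 8 other elongation factors, 4 to 6 were higher and 2 or 3 lower (3 to 6 and 2 after correction), with EEFSEC, the selenocysteine factor, higher in 7 of 7 (mean 0.69, corrected 0.28, called in 6) and EIF5A2 lower in 7 of 7 (mean -0.50) but at 0.23 after correction, called higher in 4. Of 13 genes that modify eEF2 or its kinase, 0 to 5 were higher and 6 to 9 lower in each treatment (0 to 5 and 4 to 8 after correction). PPP2CA, a catalytic subunit of the phosphatase that removes phosphate from eEF2, fell in 7 of 7 (mean -0.84, corrected -0.36, called in 7), and DPH7, of diphthamide synthesis, was higher in 6 (mean 0.29, corrected 0.061, called higher in 3 and lower in 1).

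The tested genes whose 8 condition means of log2 CPM were most like those of 3 members were looked up among 10374 genes with a mean of at least 5 CPM. The nearest to EEF2 were COASY (Pearson 0.99), TINF2 (0.99) and SEC24C (0.99), and 1039 genes exceeded 0.9. The nearest to EEF2K were FLJ22184 (0.98), CTC1 (0.98) and ZBTB4 (0.98), with 313 genes above 0.9. The nearest to MTOR were POMK (0.97), EIF4H (0.95) and ZNF772 (0.95), with 19 genes above 0.9. At that level more genes thus matched EEF2 than MTOR, on levels not corrected for GC content. MTOR also changed less over the conditions than EEF2, and the part of either in these numbers was not tested. These values describe 8 means that all genes draw from the same 16 libraries.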

How the data were processed

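Messenger RNA of 16 libraries, 2 for each of the 8 conditions, was measured by RNA-seq. The authors aligned reads to hg19 (TopHat2 2.0.14 and Bowtie2 2.2.6 per the labels) and assigned uniquely mapped read pairs to genes with featureCounts 1.4.6, and the deposited values are raw counts per gene symbol. Whether counting used strand is not given in the sources used here. Of counts from 1 to 9, 65.8% were even, against 49.9% of counts of 500 and over, and halved counts were therefore tried as an alternative chosen after seeing the data.

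Counts were tested with edgeR 4.0.16 (filterByExpr, TMM normalisation, quasi-likelihood test, 1 fit of group means over all 16 libraries with 8 residual degrees of freedom) in R 4.3.3. A change was called at a Benjamini-Hochberg adjusted p under 0.05 over the 16004 genes tested, and intervals are 95% intervals of that fit. Levels are TMM-normalised counts relative to library totals (CPM). Standard errors were derived from the fitted change and its F value. The common coefficient of variation was 2.81%. Standard errors of changes against vehicle were smallest for EEF2, with the most counts, and largest for RICTOR, with the fewest. For the correction, log2 CPM (prior count 2) of each library was smoothed by loess (span 0.5) on GC content and then on length of the Ensembl canonical transcript (GENCODE on GRCh37), and the fit was entered as an offset. GC content was available for 15349 of the tested genes (95.9%), matched by symbol or older symbol.

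Replicate numbers did not pair the libraries (correlation of deviations over 28 pairs of groups from -0.026 to 0.045). The alternatives were the GC and length correction, the replicate block, both together, RLE and upper-quartile normalisation, other filters, DESeq2 1.42.0, fits of the compared groups only, halved counts, and leaving out each library. The edgeR fits were tested on simulated data. The members and lists were chosen with earlier results of these data known. Of each wider list, the genes with the largest mean rise and fall over the 7 treatments were named, among those called in 1 direction in at least 4 and with a mean of at least 5 CPM. The sequence of EIF4EBP1 and its position are not reported here.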

Additional observations from a re-analysis of the deposited data

Results flagged for a closer look

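For 25 combinations of gene and drug, the change made by the drug in the presence of E2 differed from the change made without E2 by the interaction test of edgeR (Benjamini-Hochberg adjusted p under 0.05). The values below are log2 differences between those changes, and the value after the GC and length correction is given with each. All use the same vehicle and E2 libraries, so they are not independent of each other.

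With ketamine, the interaction was 0.96 for EIF4E (corrected 0.57), 0.65 for RPS6KB1 (0.43), 0.55 for EIF4EBP1 (0.45), 0.43 for RICTOR (0.23), -0.20 for MTOR (-0.077, not called), -0.32 for EEF2K (-0.21) and -0.34 for TSC2 (-0.21). The corrected value of RICTOR lost its call when the replicate block was added (0.23, adjusted p = 0.0516, edgeR).

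With (2R,6R)-HNK, it was 0.87 for RPS6KB1 (corrected 0.28), 0.85 for RICTOR (0.19, not called), 0.84 for EIF4E (0.27), 0.47 for TSC1 (0.26), -0.50 for RPTOR (-0.23) and -0.53 for TSC2 (-0.25). It was -0.14 for EEF2 and -0.24 for EIF4EBP1, and both turned to the other sign after correction (0.21 and 0.22, called). For EEF2K it was 0.16 (corrected 0.063, not called), and this call was lost without (2R,6R)-HNK replicate 1 (0.15), E2 replicate 1 (0.16), E2 replicate 2 (0.17), E2+(2R,6R)-HNK replicate 1 (0.13) or vehicle replicate 2 (0.13), and with RLE (0.12) or upper-quartile normalisation (0.10) or DESeq2 (0.12).

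With (2S,6S)-HNK, it was 1.44 for EIF4E (corrected 0.44), 1.14 for RICTOR (0.22, not called), 1.13 for RPS6KB1 (0.26), 0.43 for TSC1 (0.32), -0.45 for EEF2K (-0.40), -0.59 for EIF4EBP1 (0.051, not called), -0.63 for RPTOR (-0.040, not called), -0.70 for EEF2 (-0.095) and -0.94 for TSC2 (-0.34). Over the 15349 genes with a GC value, the Spearman correlation of the interaction with GC content was -0.30 with ketamine, -0.77 with (2S,6S)-HNK and -0.59 with its mirror image. The part of base composition in these values beyond the corrected figures was not tested.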

How the results depend on the processing

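Of the 70 changes against vehicle, the GC and length correction kept 49 in direction and call, weakened 8, strengthened 1 and reversed 12. The 8 other settings that kept all libraries left 554 of 560 values as they were, and leaving out 1 library left 274 of 280 (a lone library is then assumed to vary like the other groups). The reversed values under correction, alone or with the replicate block, were -0.034 for EEF2 under E2, -0.069, -0.18, -0.36, -0.047, -0.089 and -0.35 for RPTOR under E2, ketamine, (2S,6S)-HNK, (2R,6R)-HNK, E2+ketamine and E2+(2R,6R)-HNK, -0.12, -0.068 and -0.019 for EIF4EBP1 under E2, ketamine and (2R,6R)-HNK, and 0.0018 (block 0.0014) and 0.082 for RICTOR under (2S,6S)-HNK and E2+(2S,6S)-HNK. Between compounds they were -0.019 (block -0.021) for RPS6KB1 in ketamine against (2R,6R)-HNK, -0.033 for EEF2 and 0.12 for RPS6KB1 in E2+ketamine against E2+(2S,6S)-HNK, and -0.037 (block -0.038) for MTOR in E2+(2R,6R)-HNK against E2+(2S,6S)-HNK. Against E2 they were -0.020 for RPTOR, 0.14 for RICTOR and 0.014 for TSC1 with E2+ketamine and 0.11 for EEF2 with E2+(2S,6S)-HNK. Against the drug they were 0.091 for RICTOR, 0.20 (block 0.19) for RPS6KB1 and 0.11 for EIF4E with E2+ketamine and -0.010 (block -0.0094) for EIF4E with E2+(2S,6S)-HNK. Among interactions they were 0.21 for EEF2 and 0.22 for EIF4EBP1 with (2R,6R)-HNK and 0.051 for EIF4EBP1 with (2S,6S)-HNK. Members called fell under correction, with and without the block, to 6 for (2R,6R)-HNK against vehicle (43.9% of all genes, from 66.6%), 4 for ketamine against (2R,6R)-HNK (36.8%, from 45.4%), 4 for E2+ketamine (55.1%, from 66.8%) and 5 for E2+(2R,6R)-HNK (27.1%, from 54%) against E2+(2S,6S)-HNK, and 5 for E2+ketamine against ketamine (40.1%, from 57.5%). Calls in the wider list under E2 fell to 49, while those over all genes fell from 62.5% to 36.5%. Without 1 library, E2+(2R,6R)-HNK against E2 had 5 to 8 members called, with 5 without E2+(2R,6R)-HNK replicate 1. The replicate block by itself changed only the call of EIF4EBP1 between (2R,6R)-HNK and (2S,6S)-HNK (adjusted p = 0.0501, edgeR). MTOR under (2R,6R)-HNK was not called with DESeq2 (-0.081) or upper-quartile normalisation (-0.042), which also lost MTOR under E2+(2R,6R)-HNK (-0.036), called it higher under E2 (0.089) and moved the median of all genes by up to 0.10. The cause of these changes was not tested. Standard errors of changes against vehicle ran from 0.018 for EEF2 to 0.074 for RICTOR, the member with the fewest counts.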
